A study of Homo sapiens with 4 samples.

Results

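To describe how the WNT pathway was marked by H3K27ac after TWEAK had been withdrawn, 10 genes were examined out of 19970 protein-coding genes. They encode the ligands WNT5A, WNT5B and WNT7B, the secreted proteins DKK1 and DKK3, the receptors FZD7 and ROR2, the transducer CTNNB1 (β-catenin), the nuclear factor LEF1 and the target gene AXIN2. The 10 were chosen by name, with earlier results of these data known. For each gene, the H3K27ac peaks within 1 kb of its canonical start site and within 100 kb of its annotated body were taken from 4 deposited peak lists, on hg38 with GENCODE release 44. A gene whose 1 kb window held a peak is called marked.

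The lists came from ChIP-seq of MDA-MB-231 and Hs578T, established human lines of triple-negative breast cancer with mesenchymal features, with 2 biological replicates of each. Cells of both lines were starved for 8 h, received TWEAK at 10 ng/ml for 48 h with fresh cytokine after 24 h, and were then kept 72 h without it, per the labels. The text of the study describes a longer period without TWEAK, and the files do not settle which applies. The cytokine TWEAK acts through the receptor Fn14, and all 4 libraries had this treatment. Untreated and TWEAK-exposed libraries were not used here, and the effect of the cytokine was therefore not measured. The lines were not tested against each other, because the smallest two-sided p-value of an exact permutation test with 2 libraries per line is 0.333.

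The lists did not group by line. MDA-MB-231 replicate 1 had 209 peaks on chromosomes 1 to 22 and X, and the other 3 lists had 43353 to 46330. Its peak names run to 3129, of which 318 remained over all sequences, whereas in each other list nearly all numbered peaks remained. Whether it reflects a library that failed was not tested, and a gene without a peak in it cannot be taken as unmarked in those cells. The small list had a peak at 12 of all start sites, 0.0601%, and no peak within 100 kb of any of the 10 genes, against 2.54% of all protein-coding genes. Its value is therefore 0 for every member and every count below, and a mean over the MDA-MB-231 pair would describe neither list. The 3 large lists are MDA-MB-231 replicate 2 and both Hs578T replicates, and values are given in that order. The start sites of the mesenchymal genes VIM, CD44 and AXL were marked in each of the 3 large lists. Those of ESR1, PGR, GATA3, FOXA1, CDH1 and PTPRC, which mark luminal, epithelial or blood cells, were unmarked in all of them, whereas ERBB2 was marked in all of them. EPCAM (epithelial) and PECAM1 (endothelial) were marked in MDA-MB-231 replicate 2 and Hs578T replicate 1 but not in Hs578T replicate 2. Among all protein-coding genes, 58.1%, 58.2% and 56.4% were marked in the 3 large lists, so a few marked genes say little about cell type. Sequencing depth is unknown.

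WNT ligands are secreted lipid-modified proteins that bind Frizzled receptors, such as FZD7, together with co-receptors. In the canonical branch this stops the destruction of β-catenin, which enters the nucleus, joins factors of the TCF/LEF family and activates targets that include AXIN2, itself a feedback inhibitor. WNT5A and WNT5B are best known for β-catenin-independent signalling, in which ROR2 is a receptor, and DKK1 blocks the canonical co-receptors LRP5 and LRP6. H3K27ac is an acetylation of histone H3 found at active promoters and enhancers.

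Of the 10 genes, 6 were marked in each of the 3 large lists, and they were the same 6 genes each time: WNT7B, DKK1, FZD7, CTNNB1, AXIN2 and LEF1. WNT5A, WNT5B, DKK3 and ROR2 were unmarked in all 3, and the small list marked none of the 10. Among all protein-coding genes, 58.1% were marked in MDA-MB-231 replicate 2, 58.2% in Hs578T replicate 1 and 56.4% in Hs578T replicate 2, so a count of 6 in 10 was near the background. Around the gene bodies, 9 of the 10 genes had a peak within 100 kb in each large list, against 91.7%, 91.9% and 91.7% of all genes. In a bulk preparation of cells, fewer cells that carry the mark and less of the mark per cell cannot be told apart.

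The size of a start-site peak is given here by the authors' fold enrichment, which is the ratio of H3K27ac reads in the peak to a local background, computed for each library with input as the control. It ranks peaks within a list and does not measure a difference in H3K27ac between lists. In every large list the 6 marked genes fell in the same order, DKK1 first, then AXIN2, FZD7, CTNNB1, LEF1 and WNT7B. Over the 3 lists the fold enrichment ranged from 20.5 to 25.3 for DKK1, from 12.5 to 21.2 for AXIN2, from 9.02 to 14.6 for FZD7 and from 7.60 to 12.0 for CTNNB1. It ranged from 3.34 to 3.98 for LEF1 and from 2.72 to 3.62 for WNT7B. Pooled over lists, each range overlapped that of its neighbour in the order except between CTNNB1 and LEF1. Within each list, DKK1, AXIN2, FZD7 and CTNNB1 were at or above at least 72.9% of the peaks. LEF1 and WNT7B were at or above at most 36.1%. The first 4 are called strong here and the last 2 weak. When the lists were cut to the 50% of peaks with the highest scores, the 4 strong peaks stayed and those of LEF1 and WNT7B dropped out. The scores belong to the same peaks, so this cut is not a separate check of the split.

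**Figure D1:**
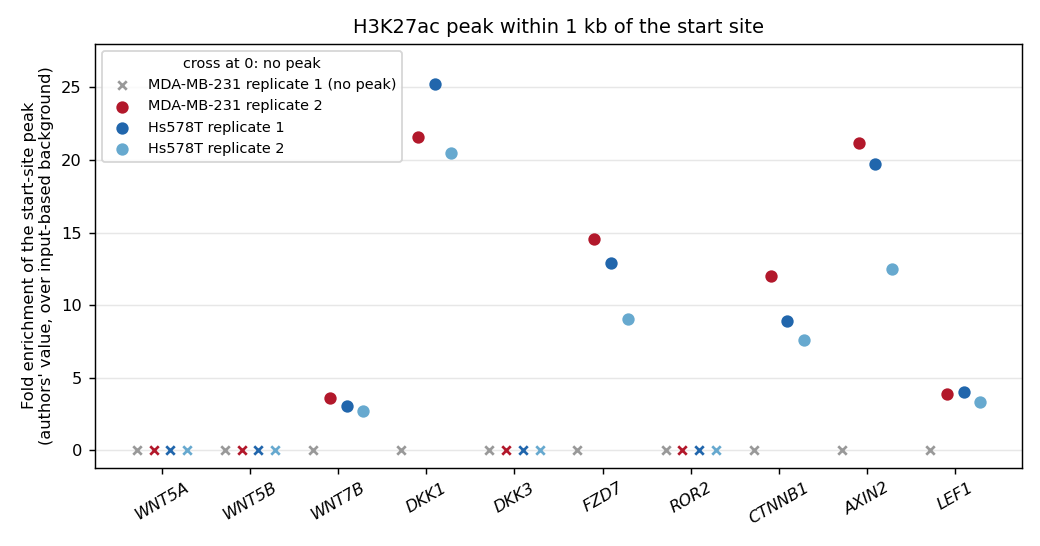
Fold enrichment (vertical axis, a ratio to the local background computed with input for each library) of the strongest H3K27ac peak within 1 kb of the start site of the 10 genes, 1 point per list, with a cross at 0 where a list had no peak. DKK1, AXIN2, FZD7 and CTNNB1 lie between 7.60 and 25.3, LEF1 and WNT7B between 2.72 and 3.98, and WNT5A, WNT5B, DKK3 and ROR2 have crosses in all 4 lists.

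The sequences at these start sites were read from hg38 to show what the marked and unmarked windows hold. TCF/LEF proteins bind short AT-rich sites, and the letters searched for were CTTTGAA and CTTTGAT on either strand. AXIN2 had 6 matches within 1 kb of its start site. Of 19970 windows of the same length 8, or 0.0401%, held 6 or more, and 37.6% held at least 1. Of the 6 matches, 5 lay under the start-site peak in each large list, 4 of them in the first intron and 1 in the first exon, and the remaining one lay 843 bp upstream and outside it. DKK1 had 3 matches, all under its peak, and FZD7 had 2. WNT5B also had 3, in a window without a peak in any list. The other 6 genes had none. Of all windows, 2.54% held 3 or more matches and 10.5% held 2 or more. In the 3 large lists peaks covered all 2001 bp of the DKK1 window, 1886 to 1967 bp at FZD7 and 1448 to 1521 bp at AXIN2. A match in these windows would thus mostly lie under a peak wherever it fell. The stretches below show the intron of AXIN2, the upstream parts of DKK1 and FZD7 and the unmarked intron of WNT5B, in the direction of transcription, with matches in capitals. A match of letters is not a measured binding site.
AXIN2, first intron from 199 to 456 bp after the start site, chr17:65561192-65561449, minus strand: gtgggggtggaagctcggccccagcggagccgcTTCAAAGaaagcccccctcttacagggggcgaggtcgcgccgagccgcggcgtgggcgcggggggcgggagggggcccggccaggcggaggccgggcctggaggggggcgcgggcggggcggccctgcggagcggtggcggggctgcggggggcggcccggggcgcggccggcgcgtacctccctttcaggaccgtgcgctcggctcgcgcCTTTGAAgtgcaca
AXIN2, first intron from 824 to 928 bp after the start site, chr17:65560720-65560824, minus strand: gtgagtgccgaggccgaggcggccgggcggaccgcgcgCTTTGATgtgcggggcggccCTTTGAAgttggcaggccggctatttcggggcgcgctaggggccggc
DKK1, from 886 to 745 bp before the start site, chr10:52313395-52313536, plus strand: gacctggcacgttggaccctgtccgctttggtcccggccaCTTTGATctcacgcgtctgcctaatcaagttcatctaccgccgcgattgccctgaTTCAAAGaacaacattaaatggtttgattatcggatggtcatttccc
DKK1, the 200 bases before the start site, chr10:52314081-52314280, plus strand: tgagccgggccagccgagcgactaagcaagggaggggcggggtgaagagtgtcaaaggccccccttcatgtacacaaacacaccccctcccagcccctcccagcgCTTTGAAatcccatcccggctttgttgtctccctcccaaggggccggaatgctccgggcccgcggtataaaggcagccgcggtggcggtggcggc
FZD7, from 403 to 317 bp before the start site, chr2:202033452-202033538, plus strand: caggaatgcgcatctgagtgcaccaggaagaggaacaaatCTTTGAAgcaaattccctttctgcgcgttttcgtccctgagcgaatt
WNT5B, first intron from 181 to 461 bp after the start site, chr12:1629412-1629692, plus strand: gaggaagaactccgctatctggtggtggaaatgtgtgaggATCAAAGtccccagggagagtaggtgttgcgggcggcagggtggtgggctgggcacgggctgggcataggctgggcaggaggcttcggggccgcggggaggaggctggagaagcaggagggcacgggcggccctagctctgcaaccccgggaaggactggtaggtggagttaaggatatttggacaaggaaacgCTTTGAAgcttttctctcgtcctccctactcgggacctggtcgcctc

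CpG dinucleotides were counted as well, because CpG-rich promoters are often marked by H3K27ac. The CpG ratio is the number of CpG in the 2001 bp around the start site divided by the number that the content of C and G would give, and 0.6 was taken as the threshold. Of all protein-coding genes at or above it, 78.4%, 78.4% and 76.3% were marked in the 3 large lists, and below it 31.8%, 32.3% and 30.8%. WNT5B was the one member under the threshold, with a ratio of 0.440. The other members, of which 6 were marked in each large list, were in the class with the higher shares. The unmarked genes WNT5A, ROR2 and DKK3 had ratios of 0.883, 0.829 and 0.694, within the range of the marked ones, which ran from 0.687 for DKK1 to 0.932 for AXIN2. Upstream stretches of the unmarked WNT5A and ROR2 are given with CpG in capitals. The WNT5A stretch avoids annotated untranslated exons and held 7 CpG, and the ROR2 stretch of the same length held 26.
WNT5A, from 292 to 93 bp before the start site, chr3:55487399-55487598, minus strand: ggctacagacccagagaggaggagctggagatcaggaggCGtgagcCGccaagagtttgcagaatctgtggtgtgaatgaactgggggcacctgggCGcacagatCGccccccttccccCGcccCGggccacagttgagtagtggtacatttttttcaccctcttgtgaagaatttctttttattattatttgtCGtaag
ROR2, the 200 bases before the start site, chr9:91950229-91950428, minus strand: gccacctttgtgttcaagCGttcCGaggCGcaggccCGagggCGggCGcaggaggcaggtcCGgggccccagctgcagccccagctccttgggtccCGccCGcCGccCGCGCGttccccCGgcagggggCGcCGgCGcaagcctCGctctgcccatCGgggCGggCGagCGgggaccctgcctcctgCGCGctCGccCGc

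**Figure D2:**
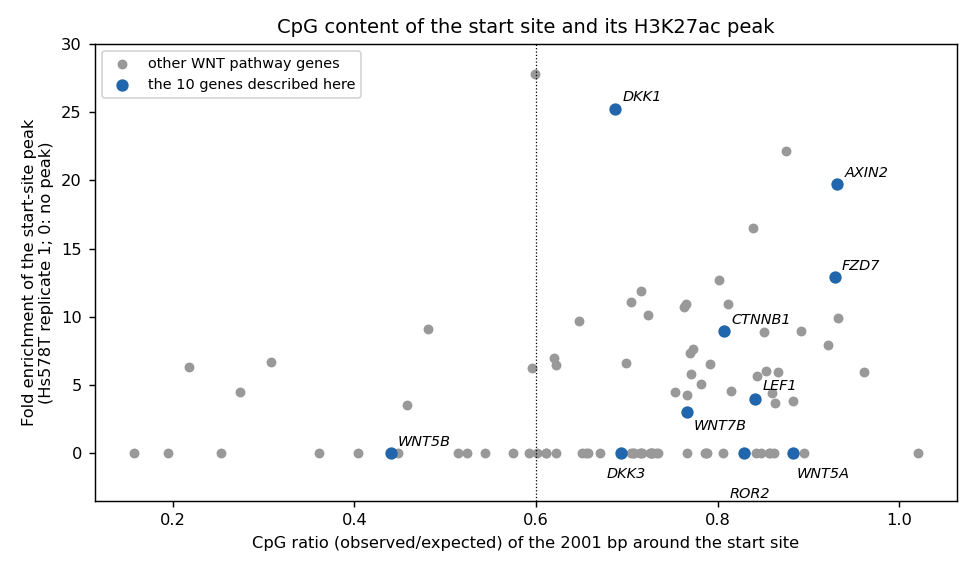
Fold enrichment of the start-site peak in Hs578T replicate 1 (vertical axis, 0 where there was no peak) against the CpG ratio of the 2001 bp around the start site (horizontal axis) for 94 WNT pathway genes, with the 10 genes described here in blue. The dotted line marks a ratio of 0.6, and WNT5A, ROR2 and DKK3 lie to its right at 0.

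Among the ligands, WNT5A (chr3:55465715-55490539, minus strand) had no H3K27ac peak at all in its neighbourhood. No list had a peak within 100 kb of the gene. The nearest peak lay 641 kb from the gene body in MDA-MB-231 replicate 2 and in Hs578T replicate 1, and 602 kb in Hs578T replicate 2. The stretch without peaks around its start site spanned 2.24 Mb, 2.24 Mb and 1.27 Mb in these lists and held 3, 3 and 2 protein-coding start sites, its own included. The start sites of its other basic transcripts were unmarked too. Across the genome, 1484 protein-coding genes, or 7.43%, had no peak within 100 kb in any list, and 394 of them had a CpG ratio of at least 0.6, as WNT5A did. In 247 genes the nearest peak was over 500 kb from the body in all 3 large lists, and 80 of these, WNT5A among them, reached that ratio.

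WNT5B (chr12:1529891-1647212, plus strand) lay among marked chromatin but was not marked itself. Its body spans several alternative start sites, the first of them far upstream of the canonical one at 1629231, and none was within 1 kb of a peak. Within 100 kb of the body there were 10 peaks in MDA-MB-231 replicate 2 and 7 in each Hs578T list, covering 15074, 14679 and 13806 bp. The share of the window they covered was higher than in 56.9%, 52.1% and 53.2% of all genes, which is close to the middle of the genome. The strongest, at chr12:1471622-1477572 152 to 158 kb upstream of the canonical start, had fold enrichments of 32.1, 33.6 and 29.5. The nearest one to the start was in an intron, 9802, 9732 and 9532 bp after it, with fold enrichments of 6.66, 6.85 and 5.09. FBXL14, a ubiquitin ligase subunit gene whose start lies 34.6 kb upstream inside the WNT5B body, was marked in all 3 large lists at 17.3, 12.7 and 8.12. Of the 10 regions around WNT5B, 1 had the WNT5B start as the nearest protein-coding one.

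WNT7B (chr22:45920366-45977162, minus strand) had the weakest start site of the 6 marked genes and, with DKK3, the most acetylated surroundings. The start-site peak had a fold enrichment of 3.62 in MDA-MB-231 replicate 2, 3.03 in Hs578T replicate 1 and 2.72 in Hs578T replicate 2. At or below it were 23.5%, 17.0% and 4.82% of the peaks of the same list. Its width was 2042, 4722 and 579 bp, and the Hs578T replicates differed more from each other than either did from MDA-MB-231 replicate 2.

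Around WNT7B 41110, 49557 and 40921 bp were covered by 18, 18 and 15 peaks, a share of the window higher than in 95.2%, 96.5% and 95.2% of all genes. Hs578T had 45.2 ± 6.11 kb (SD, n = 2), a range that took in the value of MDA-MB-231 replicate 2. Of 19 merged regions, 15 were called in all 3 large lists and 18 had the WNT7B start as the nearest protein-coding one. The upstream flank held 29.0, 30.7 and 27.1 kb of this sequence. A domain 85.8 to 101 kb upstream was the widest, at 14.9 kb over the 3 lists, with fold enrichments of 23.2, 20.5 and 14.6, and the nearest protein-coding start to it was that of PPARA. A narrower peak 35.9 to 37.8 kb upstream (chr22:46013103-46014959) reached 23.3, 19.8 and 14.9. It held a pair of AP-1 motifs, the letters TGACTCA or TGAGTCA, bound by FOS and JUN proteins. This pair was the most closely spaced in the upstream regions of the gene, and the stretch is given with the motifs in capitals.
WNT7B, from 36517 to 36419 bp before the start site, chr22:46013581-46013679, minus strand: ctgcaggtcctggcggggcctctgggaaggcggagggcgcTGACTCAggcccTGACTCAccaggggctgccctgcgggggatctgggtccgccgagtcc

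**Figure D3:**
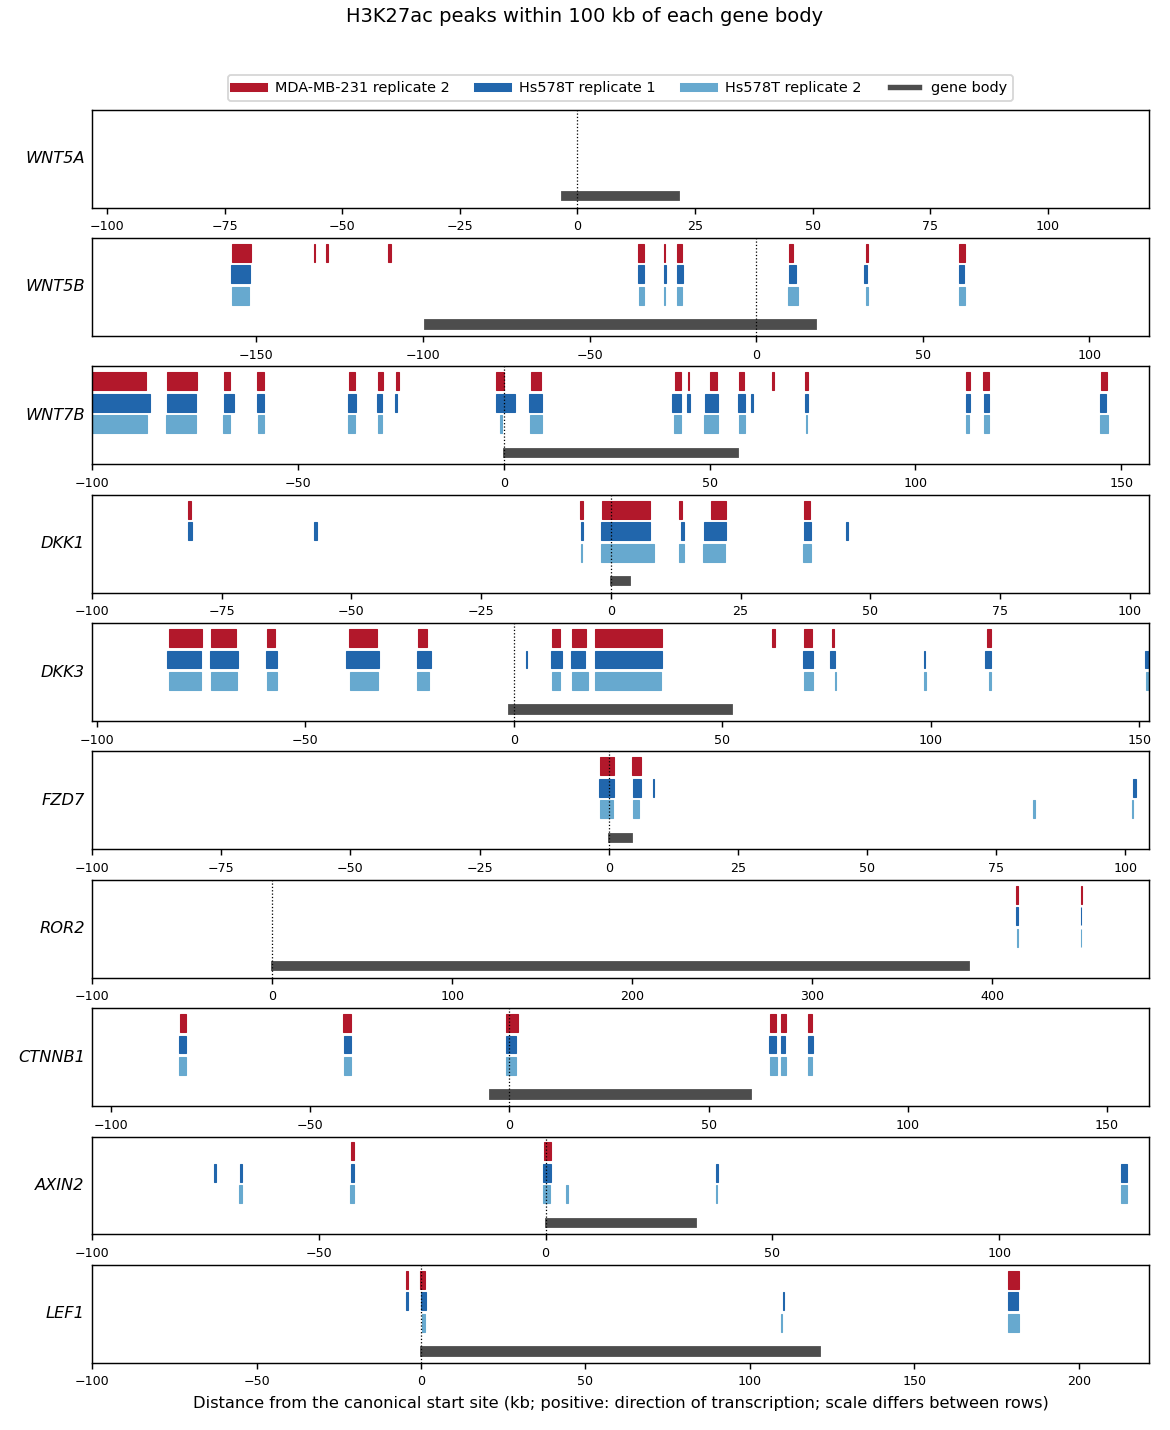
Peaks (coloured bars, 1 row per large list) within 100 kb of the body of each gene (grey bar), by distance from the canonical start site in kb, with transcription running to the right and a different scale in each panel. WNT5A has none, DKK1 has 1 broad peak over the gene, DKK3 has wide peaks on either side of an unmarked start site, and ROR2 has 2 peaks beyond its end; MDA-MB-231 replicate 1 had no peak in any panel and is not drawn.

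The 2 DKK genes differed in where the mark lay. At DKK1 (chr10:52314281-52318042, plus strand), the antagonist of LRP5 and LRP6, a single broad peak covered the start site and 100% of the gene body in all 3 large lists. It was 9343, 9539 and 10114 bp wide, in the top few percent of each list, since 99.0%, 98.8% and 99.2% of peaks were no wider. Its fold enrichment was 21.6, 25.3 and 20.5, at or above 96.5%, 98.4% and 98.1% of the peaks in the list. Width in Hs578T was 9826 ± 407 bp (SD, n = 2), and MDA-MB-231 replicate 2 was narrower than both of its lists. Besides this peak, the window held 7 regions with fold enrichments of at most 5.89, and all 8 had DKK1 as the nearest protein-coding gene.

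At DKK3 (chr11:11956207-12009769, minus strand), a divergent secreted member of the same family, the start site was unmarked in all 3 large lists. The start sites of its other basic transcripts were unmarked as well. The nearest peak to the start lay 9093, 2928 and 9297 bp away, and the closest of these, in Hs578T replicate 1, was a weak peak of 2.90 that the other lists lacked. Nevertheless 50424, 56982 and 51452 bp were covered by 12, 14 and 13 peaks within 100 kb, a share higher than in 97.8%, 98.1% and 98.0% of all genes. Hs578T had 54.2 ± 3.91 kb (SD, n = 2), and MDA-MB-231 replicate 2 lay below both of its lists. Of 8120 protein-coding genes without a start-site peak in any list, 42 had more than 50 kb covered in each large list, and DKK3 was one of them.

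The covered sequence of DKK3 lay on both sides of the start. Inside the gene, 39.9%, 41.9% and 39.9% of the body was covered. The widest part was an intronic domain of 16021, 16030 and 15650 bp, 19.4 to 35.5 kb after the start, with fold enrichments of 21.7, 23.1 and 19.7. Upstream, 25.04, 28.6 and 26.1 kb was covered in 5 regions, all of them called in the 3 large lists. The strongest peak of all the windows studied was among these. It lay 74.9 to 83.1 kb upstream (chr11:12083515-12091691) with fold enrichments of 35.04, 37.4 and 33.05, and the nearest protein-coding start was that of MICAL2, an actin-regulating monooxygenase, 18.9 kb from it. DKK3 was the nearest protein-coding gene of 10 of its 16 regions. The intronic domain, 16101 bp when merged over lists, held 6 AP-1 motifs and 6 TCF/LEF matches. The strongest upstream peak, merged to 8177 bp, held 3 and 4. In peaks away from start sites, AP-1 matches per kb were 0.393, 0.332 and 0.380 around the 10 genes. In the whole large lists they were 0.471, 0.454 and 0.459. The closest pair of AP-1 motifs inside the gene, and the closest pair of TCF/LEF letters in the upstream peak, are given in capitals.
DKK3, intron from 25402 to 25522 bp after the start site, AP-1, chr11:11983104-11983224, minus strand: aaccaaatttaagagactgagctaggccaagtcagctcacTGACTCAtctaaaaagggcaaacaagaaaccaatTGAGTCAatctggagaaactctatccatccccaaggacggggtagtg
DKK3, from 79639 to 79524 bp before the start site, TCF/LEF, chr11:12088150-12088265, minus strand: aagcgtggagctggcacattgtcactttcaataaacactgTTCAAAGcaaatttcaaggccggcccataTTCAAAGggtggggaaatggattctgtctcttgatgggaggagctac

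**Figure D4:**
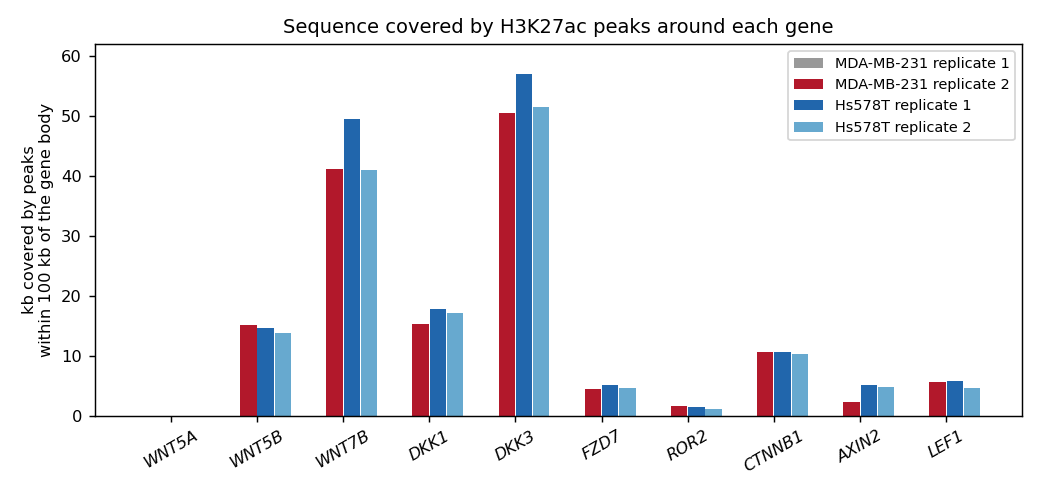
Sequence in kb covered by H3K27ac peaks within 100 kb of the body of each gene, 1 bar per list. DKK3 (50.4 to 57.0 kb) and WNT7B (40.9 to 49.6 kb) exceed the other 8 genes in each large list, and MDA-MB-231 replicate 1 is 0 throughout.

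The receptors FZD7 and ROR2 differed at the start site, and both had a covered share below the middle of the genome. FZD7 (chr2:202033855-202038441, plus strand), a single-exon Frizzled gene, had a start-site peak of 2703, 2789 and 2635 bp with fold enrichments of 14.6, 12.9 and 9.02. Its width in Hs578T was 2712 ± 109 bp (SD, n = 2), and MDA-MB-231 replicate 2 fell inside that range. A second peak was also called in all 3 large lists, at 6.54, 6.10 and 4.96. Merged over lists, it lay 4.49 to 6.20 kb after the start. Its call from MDA-MB-231 replicate 2 overlapped the last part of FZD7, whereas both Hs578T calls began past the gene end. The remaining 3 regions of the window were weak and were each missing from at least 1 large list. Covered sequence came to 4412, 5119 and 4515 bp, a share of the window higher than in 31.3%, 32.8% and 31.6% of all genes.

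ROR2 (chr9:91563091-91950228, minus strand), a receptor tyrosine kinase for WNT5A, had no peak at its start site and none anywhere in its body, which is 387138 bp long. The nearest peak to the start lay 149, 144 and 150 kb away. The window held 2 peaks in each large list, both more than 26 kb beyond the end of the gene, with fold enrichments between 3.63 and 4.51 and a total of 1592, 1486 and 1073 bp. Of all genes, 10.1%, 9.61% and 9.17% had a smaller covered share. The nearest protein-coding start to both peaks was that of NFIL3.

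CTNNB1 (chr3:41194741-41260096, plus strand) had a moderate start-site peak. It was 3112, 2640 and 2638 bp wide with fold enrichments of 12.0, 8.94 and 7.60, at or above 82.4%, 74.7% and 72.9% of the peaks of each list. Hs578T measured 2639 ± 1.41 bp (SD, n = 2), and MDA-MB-231 replicate 2 was wider. All 6 regions of its window were called in all 3 large lists, and all had CTNNB1 as the nearest protein-coding gene. The strongest of them was distal, 81.1 to 83.0 kb upstream, at 13.0, 14.7 and 14.1. In each large list this distal peak had a higher fold enrichment than the start site.

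AXIN2 (chr17:65528563-65561648, minus strand) had the opposite form, a strong and compact start-site peak in otherwise sparse surroundings. The peak was 1555, 1640 and 1525 bp wide, near the middle of each list, but its fold enrichment of 21.2, 19.7 and 12.5 was at or above 96.2%, 95.8% and 90.0% of the peaks. It ran from 447, 520 and 467 bp before the start to 1107, 1119 and 1057 bp after it. All other regions of the window had fold enrichments of at most 3.56. Of these 6 regions, 1 was called in all 3 large lists, and 3 occurred in the pair of Hs578T lists without MDA-MB-231. Covered sequence was 2321 bp in the large MDA-MB-231 list against 5137 and 4767 bp for Hs578T, or 4.95 ± 0.262 kb (SD, n = 2), a separation that rested on those weak regions and on 1 MDA-MB-231 list.

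LEF1 (chr4:108047545-108168956, minus strand), which binds DNA for β-catenin, was weakly marked. Its start-site peak had fold enrichments of 3.90, 3.98 and 3.34 and widths of 1491, 1625 and 929 bp. In Hs578T replicate 2 it began 306 bp after the start, whereas it covered the start in the other 2 large lists. The strongest peak of the window lay at the start of HADH, a mitochondrial fatty acid oxidation enzyme, 179 kb after that of LEF1, with fold enrichments of 8.44, 10.4 and 10.1. Inside the long body of LEF1, away from the start, no peaks of different lists overlapped. Weak peaks of the Hs578T replicates did lie close together, at chr4:108058691-108058970 in replicate 1 and chr4:108059039-108059333 in replicate 2.

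Regions in the 10 windows were next compared between lists. Merging overlapping peaks gave 78 regions, of which 51 were called in all 3 large lists, 11 in 2 and 16 in 1. The regions called in 3 lists had a median fold enrichment of 8.57, taking the highest value of each, whereas those called in 2 or in 1 had 3.21 and 2.92 and none exceeded 4.12. The lowest value among the regions in 3 lists was 3.06, so the classes overlapped. Weak regions more easily miss the threshold of a call, and the highest of several values tends to exceed a single one. The difference is therefore partly built in. Of the 11 regions in 2 lists, 6 were in both Hs578T lists and 5 in MDA-MB-231 replicate 2 and Hs578T replicate 1, and of those in 1 list 5, 7 and 4 belonged to MDA-MB-231 replicate 2, Hs578T replicate 1 and Hs578T replicate 2. By place, 6 were at start sites, 15 inside the genes and 57 in the flanks, 25 upstream and 32 downstream. Of the 78, 52 had the member as the nearest protein-coding gene.

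Motif letters were then compared between the peaks of these windows and whole lists, for peaks over 1 kb from every annotated start site. AP-1 letters were present in 19 of 43 such peaks of the windows in MDA-MB-231 replicate 2 (44.2%), 18 of 51 in Hs578T replicate 1 (35.3%) and 18 of 42 in Hs578T replicate 2 (42.9%). In the whole lists 51.6%, 50.8% and 50.04% held them. For the TCF/LEF letters the shares were 41.9%, 41.2% and 40.5% around the 10 genes and 40.4%, 40.9% and 40.3% in the whole lists. None of the 10 start-site windows held AP-1 letters, against 20.2% of all such windows holding at least 1. These shares are descriptions of the same peaks seen in several lists, and no test was made.

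The 10 genes were finally set within a list of 94 genes of the WNT pathway, in 9 groups by role. Of the 94, 45 were marked in MDA-MB-231 replicate 2, 45 in Hs578T replicate 1 and 43 in Hs578T replicate 2. These were 47.9%, 47.9% and 45.7%, below the 58.1%, 58.2% and 56.4% of all genes. In the pathway list 74 genes had a CpG ratio of at least 0.6, and 35 of these were marked in no list. Among all genes of that class 78.4%, 78.4% and 76.3% were marked. The 84 genes outside the 10 were marked at 46.4%, 46.4% and 44.05%. In all, 43 were marked in each of the 3 large lists, 48 in no list and 3 in some of the large lists. As the 6 marked members shared their pattern with 37 other pathway genes, and the 4 unmarked ones with 44 others, the pattern over lists did not single out any gene.

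Secreted components were mostly unmarked. Among 19 WNT ligands, 2 were marked in every large list, WNT7B and WNT9A, the latter at 4.45, 3.66 and 3.48, and the other 17 in none. Among the 13 ligands with a CpG ratio of at least 0.6, 2 were marked and 11 were not, where 78.4%, 78.4% and 76.3% of all genes of that class were marked. Of 12 secreted inhibitors, DKK1 was marked in all 3 large lists, SOST (a LRP5 and LRP6 antagonist of bone) at 4.45 in Hs578T replicate 1 alone, and the other 10, which include DKK2, DKK4, WIF1 and the SFRP genes, in none. Of the 12, 8 had a CpG ratio of at least 0.6, and 7 of these were marked in no list. WNT5A, WNT5B and DKK3 were thus unmarked like most genes of their groups, and DKK1 was the one inhibitor of the 12 marked in all 3 large lists. Both genes needed to release WNT proteins were marked, PORCN at 8.08, 6.44 and 6.73 and WLS at 5.81, 6.27 and 5.95.

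Of 10 Frizzled genes 8, 7 and 6 were marked in the 3 large lists, or 80%, 70% and 60%, where all genes gave 58.1%, 58.2% and 56.4%. All 10 had a CpG ratio of at least 0.6, a class in which 78.4%, 78.4% and 76.3% of all genes were marked. No difference between roles was tested. FZD7, FZD2 and FZD1 had the highest mean fold enrichments of the group, with 13.1, 10.95 and 8.86 for FZD2 and 15.3, 8.90 and 8.23 for FZD1. FZD3 was marked in MDA-MB-231 replicate 2 alone at 3.65. FZD8 was marked there and in Hs578T replicate 1 at 4.25 and 4.38, and FZD9 and FZD10 in no list. Of 8 other receptors and co-receptors 4, or 50%, were marked in each large list, namely LRP5 at 16.0, 12.7 and 9.74, LRP6 at 16.5, 10.7 and 8.21, ROR1 at 8.88, 4.52 and 4.71, and RYK. All 8 were in the same CpG class. ROR1 was thus marked where its paralogue ROR2 was not. The unmarked ones besides ROR2 were PTK7, KREMEN1 and KREMEN2. Of 9 R-spondin and receptor turnover genes, LGR4, RNF43 and ZNRF3 were marked (33.3%), all at or below 7.35. Of the 9, 6 were in that CpG class.

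Of 13 cytoplasmic transducers 12 were marked in each large list, or 92.3%, with APC2 the exception, where all genes gave 58.1%, 58.2% and 56.4%. Of the 13, 11 had a CpG ratio of at least 0.6, a class marked at 78.4%, 78.4% and 76.3%. The highest by the mean over lists were the kinase genes GSK3B at 28.4, 22.1 and 17.9 and CSNK1A1 at 17.2, 16.5 and 14.2, which act in the β-catenin destruction complex, followed by DVL2 at 12.0, 9.67 and 6.98. CTNNB1, at 12.0, 8.94 and 7.60, lay close to DVL2 and above it in Hs578T replicate 2. Of 12 nuclear factors 8, or 66.7%, were marked, led by the β-catenin cofactor genes BCL9L at 29.1, 27.8 and 21.3 and PYGO2 at 17.5, 11.9 and 9.002 and by TCF7L2 at 12.4, 11.1 and 8.86. LEF1 was the lowest of the 8, and the other family members TCF7 and TCF7L1 were unmarked. Of the 12, 10 were in the same CpG class. Of 9 target genes 5, or 55.6%, were marked, near the share of all genes. AXIN2 was the highest of them, above MYC at 13.1, 10.97 and 8.81 and CCND1 at 13.8, 10.1 and 8.69. The MYC peak was 9702, 9574 and 9931 bp wide and the CCND1 peak 12685, 20867 and 13277 bp. The feedback genes NKD1 and NKD2 were unmarked.

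**Figure D5:**
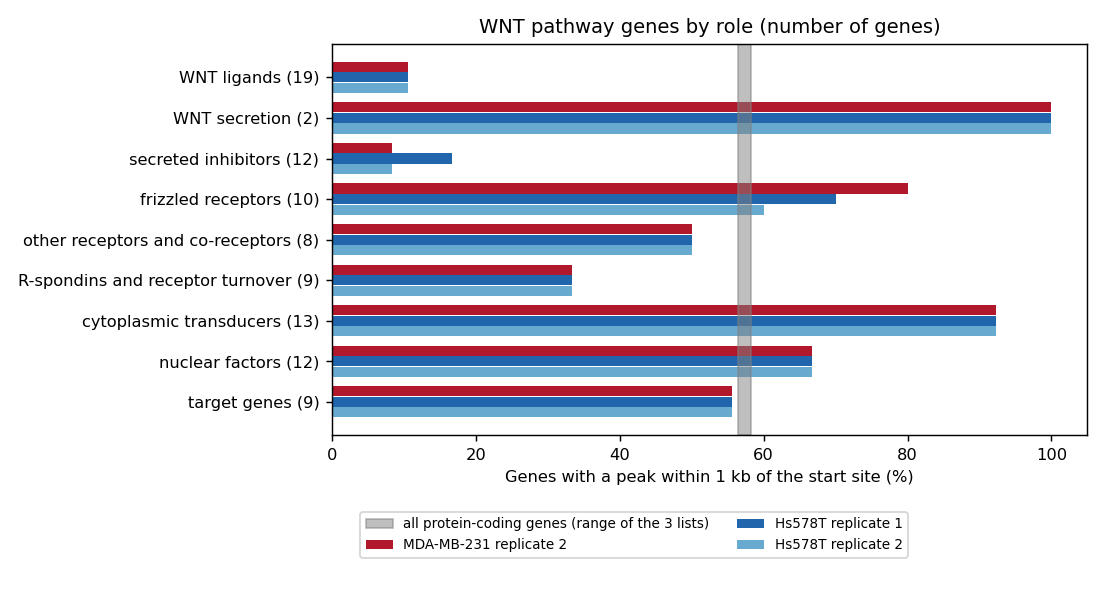
Percentage of genes with a peak within 1 kb of the start site (horizontal axis) in 9 roles of the WNT pathway, with the number of genes in parentheses, 1 bar per large list, and the range over all protein-coding genes (56.4 to 58.2%) as a grey band. Ligands (10.5% in each list) and secreted inhibitors (8.33 to 16.7%) lie below the band and cytoplasmic transducers (92.3%) above it.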

How the data were processed

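The authors trimmed reads with Trimmomatic, mapped them to hg38 with Bowtie2 and called peaks in each H3K27ac library against input with MACS2, then removed blacklisted regions. Versions and settings were not given in the sources used here, and broad mode is inferred from the 9 columns of the lists. The deposited values were used per peak as the authors gave them: a score, a fold enrichment (a ratio to the local background, with input as control), and −log10 p-values and q-values. The q-values reached 0.0994. Input was a control for each call, so a peak depends on it as well as on depth, which is unknown.

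All sequence names of the lists were present in the hg38 reference and no peak ran past a sequence end. The titles of the samples gave the line and the replicate number. Start sites were those of the Ensembl canonical transcripts in GENCODE release 44. Intervals were counted in Python 3 with pandas and pysam, and checked on simulated intervals. A gene counted as marked when a peak overlapped the 1 kb on either side of its start site, and peaks of different lists were merged into a region when they overlapped or touched. The 10 genes, the 94-gene list, the motifs and the thresholds were chosen with earlier results of these data known. Within the 94, genes named were those marked in some but not all of the large lists and up to 3 per role with the highest mean fold enrichment. In a window, the other protein-coding gene with the strongest marked start was named. Other genes were named, after their values were seen, to complete a group or to place a region. Alternatives were other windows, all basic transcripts, the strongest 50% or the 20000 top peaks of each list by score, other merging rules and leaving out replicates.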

Additional observations from a re-analysis of the deposited data

How the results depend on the processing

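The count of members marked in the 3 large lists, and which 6 they were, did not change with 500 bp or 2.5 kb windows or with the start sites of all basic transcripts. With the strongest 50% of each list or the 20000 top peaks the count was 4. Pathway genes marked in Hs578T replicate 1 fell to 29 with the 20000 top peaks. Bases covered around the 10 genes in Hs578T replicate 1 and 2, 167096 and 148519 bp, were 70357 and 61752 with 10 kb flanks, 103368 and 90208 with 50 kb flanks, 113948 and 99489 for peaks nearest to the member's own start, 139935 and 130909 with the strongest 50%, and 133076 and 125059 with the 20000 top peaks. In MDA-MB-231 replicate 2, 146395 bp became 61230, 90352, 96824, 123109 and 120977 in the same order. Each of these settings keeps fewer peaks or less sequence by construction. Regions called in all 3 large lists went from 51 to 33 with the strongest 50% of each list. Leaving out a replicate moved the MDA-MB-231 means to between 0 and 6 members marked, 0 and 45 pathway genes marked, and 0 and 146395 bp covered, with the low value always that of replicate 1 alone. In Hs578T it gave 6 members, 43 to 45 pathway genes and 148519 to 167096 bp. The alternatives not listed here changed no count by over 1.5 times. No paired analysis was possible because no test was made and same-numbered libraries came from different lines. Calls of weak peaks, such as those of LEF1 and WNT7B, can depend on depth, which is unknown. The start-site peaks of both genes were called in all 3 large lists. A region missing from a list was not called in that library, and the reason was not tested.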

Other observations

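Non-coding genes lay at several of the distal peaks. They were picked out after the values were seen, and their transcription was not measured. The share of non-coding start sites marked across the genome is not given here, so the counts below have no background. Of the 13 other annotated start sites within 100 kb of the WNT7B body, none of them protein-coding, 10 were marked in each large list. Several of the 10 lay under the same peak, such as PRR34, PRR34-AS1 and MIRLET7BHG, and are not separate calls. MIRLET7BHG, the host gene of microRNAs of the let-7 family, started 76.7 kb upstream of WNT7B, in a peak of 7198, 7112 and 7363 bp with fold enrichments of 10.9, 11.2 and 7.63 in the 3 large lists, MDA-MB-231 replicate 2 first and then the Hs578T pair. LINC02939 started 92.7 kb upstream, inside the widest domain of the window.

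At DKK3, 3 of the 4 other annotated start sites were marked in each large list although that of DKK3 was not: LINC02547 at 8.96, 8.75 and 7.43, ENSG00000254991 at 15.0, 13.0 and 11.4, and LINC02989 at 35.04, 37.4 and 33.05. The start of PRKG1-AS1, 606 bp upstream of DKK1, lay under the same broad peak as DKK1. LEF1-AS1, 2.96 kb upstream of LEF1, and WNT5A-AS1, 393 bp upstream of WNT5A, were unmarked in all 3 large lists.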
